A study of Homo sapiens with 3 samples.

Results

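The urokinase and plasminogen activator system was examined in maps of chromatin binding from PANC-1 cells, a long-used line from a human carcinoma of the pancreatic duct. Its members were taken by name as 6 of 20163 annotated protein-coding genes, namely PLAU, PLAUR, PLAT, PLG, SERPINE2 and SERPINB2. The rule that names them uses no measured value, although the members were chosen with earlier results of these data known. The study holds 3 libraries from wild-type cells with no treatment listed, 1 for each of an antibody against PHF13 (a rabbit polyclonal raised for the study), an antibody against EZH2 and input chromatin, which served as the control only. The cells had been fixed with EGS, a crosslinker that joins proteins to each other, and with formaldehyde before chromatin immunoprecipitation and sequencing (ChIP-seq). Each antibody gave 1 peak list, called by the authors with the input as control, and the lists held 19039 PHF13 and 21639 EZH2 peaks. Without replicates, every value describes these libraries only, and the peak lists carry no expression level from which the identity of the cells could be checked.

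Plasminogen is a circulating zymogen that the activators urokinase (PLAU) and tissue-type plasminogen activator (PLAT) cleave to plasmin, a protease that dissolves fibrin and breaks down extracellular matrix. Urokinase is held at the cell surface by its receptor PLAUR, and both activators are inhibited by serpins, among them SERPINE2 (protease nexin) and SERPINB2 (plasminogen activator inhibitor type 2). The system is known in carcinoma for its part in pericellular proteolysis and invasion. PHF13 is a PHD-finger protein that reads methylated histone H3, and EZH2 is the methyltransferase of the Polycomb complex PRC2. The upstream enhancer of the urokinase gene is a textbook case of neighbouring ETS and AP-1 elements, and AP-1, the FOS and JUN dimer, is the factor whose site was sought at each peak.

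PHF13 and EZH2 were found at different members. A gene was taken to have a peak when any base of the peak lay within 5 kb of a transcription start site (TSS) of any of its transcripts, or inside the gene. PHF13 peaks were at 1 of the 6 genes, PLAU, compared with 31.2% of all protein-coding genes. EZH2 peaks were at 1 of the 6 genes, SERPINE2, compared with 30.0%. No member had both, against 12.6% of all genes, and 4 members (PLAUR, PLAT, PLG and SERPINB2) had neither, against 51.4%. With 6 genes and 1 library an antibody, these counts say nothing of the system as a group, and the values below describe where the peaks lie.

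Sequences under and beside the peaks at PLAU and SERPINE2 are shown because they let the reader see which words and how many CpGs each holds. All are from the plus strand of GRCh37 (hg19) except that of SERPINE2, which is read along the gene. In the PLAU sequences, capitals mark the AP-1 words TGACTCA or TGAGTCA, which are each other's reverse complement and so cover both strands. They also mark the ETS word AGGAAG in the upstream peak. At the first TSS they mark the AP-1-like words TGAAGTCA, whose first base lies outside the start peak, and TGAATCA, which lies inside it. In the SERPINE2 sequence, capitals mark each CpG. The sequence after the first TSS is untranslated exon and is cut to 30 bases.
PLAU, upstream peak, chr10:75666491-75666645: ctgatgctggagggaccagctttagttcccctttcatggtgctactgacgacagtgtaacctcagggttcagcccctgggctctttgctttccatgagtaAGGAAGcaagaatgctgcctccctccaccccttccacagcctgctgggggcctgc
PLAU, before the first TSS, mostly outside the start peak, chr10:75668877-75668934: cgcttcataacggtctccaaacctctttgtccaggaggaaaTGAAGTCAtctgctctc
PLAU, after the first TSS, in the start peak, chr10:75668989-75669018: ggggagcaacaTGAATCAtgacggtccctg
PLAU, peak 21102 bp before the gene, chr10:75647661-75647717: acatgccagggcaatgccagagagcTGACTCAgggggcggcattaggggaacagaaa
PLAU, peak 48835 bp behind the gene, chr10:75726104-75726160: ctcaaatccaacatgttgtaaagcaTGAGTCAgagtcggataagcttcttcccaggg
SERPINE2, 200 bases before the first TSS, chr2:224904036-224904235, minus strand: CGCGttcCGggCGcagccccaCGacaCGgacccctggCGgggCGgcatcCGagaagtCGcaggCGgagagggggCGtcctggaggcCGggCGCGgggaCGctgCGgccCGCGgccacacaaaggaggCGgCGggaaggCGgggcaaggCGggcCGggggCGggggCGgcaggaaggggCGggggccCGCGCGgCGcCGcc

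PLAU encodes urokinase and was the member with PHF13 at its first annotated start, which 1 of its 5 transcripts uses. The gene (ENSG00000122861) lies on the plus strand of chromosome 10 at 75668935 to 75677254 and has 5 annotated starts. The stronger PHF13 peak, at 75666491 to 75666645, was intergenic, with its summit at −2392 bp from the first start. Fold enrichment is the ratio of ChIP fragments to the local background at the summit, after 1 is added to each. For this peak it was 3.59 (95% Poisson interval 2.53 to 4.96), with 35 fragments over a background of 9.01, and the −log10 q was 7.14. Within the PHF13 list the peak reached the 60.7th percentile by fold enrichment and the 82.4th by −log10 q. The median PHF13 peak held 21 fragments.

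The weaker PHF13 peak of PLAU spanned the first start, at 75668919 to 75669102. Its fold enrichment was 2.58 (1.75 to 3.69), with 28 fragments over a background of 10.2, and its −log10 q was 2.72. The intervals of both peaks overlap, and their heights could not be told apart at this depth. The summit lay in exonic untranslated sequence 42 bp inside the transcript that starts first, and at −1386 to −1928 bp from the other 4 starts. This peak was at the 4.50th percentile of its list by fold enrichment, and it drops out at a −log10 q of at least 3. As at PLAU, 2 or more PHF13 peaks within 5 kb of a TSS were found at 3.93% of protein-coding genes. The closest EZH2 peak was 32828 bp from PLAU. The name start peak refers to the first annotated start only, since its summit lies upstream of the other 4. Whether either PHF13 peak of PLAU covers the known urokinase enhancer was not tested.

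Neither of the PHF13 peaks at PLAU held the strict AP-1 word in the 200 bp at its summit. The word was present at 11.2% of all PHF13 summits and at 2.31% of all EZH2 summits. The nearest occurrences were 218 bp from the summit of the start peak and 487 bp from that of the upstream peak. When any base was allowed in the centre (TGANTCA, which includes the strict word), the start peak held TGAATCA, 23 bp from its summit. The wider word was present at 14.5% of PHF13 summits and in 5.80% of windows 1 kb to each side of them, whereas for EZH2 the values were 4.20% and 5.38%. After the sequence had been read, 8-base words with 1 base more in the centre (TGANGTCA or TGACNTCA) were counted as well. The start peak had TGAAGTCA starting 59 bp before its summit, so that its first base lies 1 base outside the called peak, directly behind the letters aggaaa. Such 8-base words were present at 6.20% of PHF13 summits and in 5.06% of their flanks. The ETS word AGGAAG, or its reverse complement CTTCCT, occurred 2 times in the 200 bp at the upstream summit and not at the start peak. It was held by 20.0% of PHF13 and 21.6% of EZH2 summits. The shorter letters ggaa do stand just before TGAAGTCA at the start peak, so this search does not show that ETS elements are absent there.

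**Figure D1:**
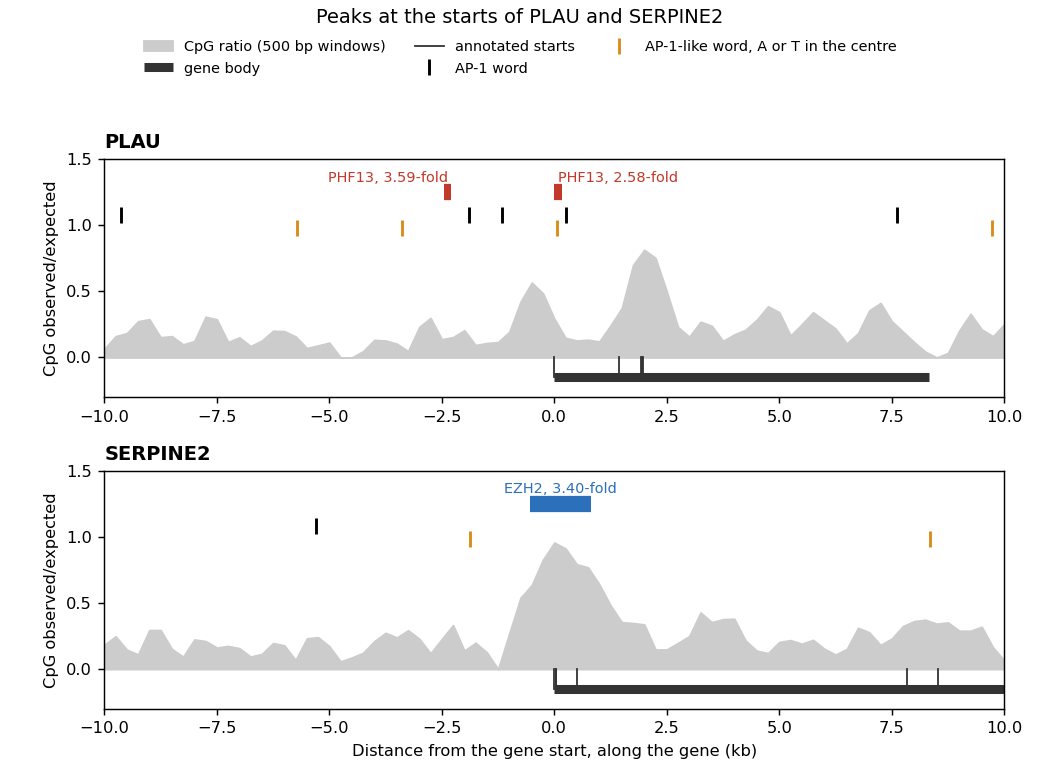
Positions of peaks, AP-1 words and annotated starts within 10 kb of the first start of PLAU (top) and SERPINE2 (bottom), plotted along the gene in kb (x axis), with the CpG observed/expected ratio in 500 bp windows in grey (y axis), AP-1 words as black ticks and AP-1-like words with A or T in the centre as orange ticks. The PHF13 peaks of PLAU (red) lie upstream of and over its first start, while the EZH2 peak of SERPINE2 (blue) covers the CpG-rich start.

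Around PLAU, PHF13 peaks were many. Within 100 kb of the gene lay 6 PHF13 peaks, a number exceeding that of 93.0% of protein-coding genes, and 1 EZH2 peak. At least 1 PHF13 peak within this distance was found at 75.6% of all genes, and the median gene had 2. All 6 were in single-copy sequence, which means that the median 24-mer of the 100 bp at the summit occurs once in the genome, and 4 of them had a −log10 q of at least 5. The other 4 peaks had fold enrichments of 3.68, 3.71, 3.50 and 3.15. The first lay in an exon of NDST2 and spanned a start of ENSG00000272916, with a GC content of 78.2%, and the second lay in an intron of CAMK2G, 1795 bp from a TSS.

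AP-1 words were found at the intergenic PHF13 peaks beyond 5 kb on both sides of PLAU, but not at the intergenic upstream peak described above. The peak 21102 bp before the gene (75647463 to 75647833) was enriched 3.50-fold (2.4 to 4.95) at a −log10 q of 5.71, with TGACTCA 89 bp from its summit. The peak 48835 bp behind the gene (75726089 to 75726236) was enriched 3.15-fold (2.01 to 4.74) at a −log10 q of 3.10, with TGAGTCA 8 bp before its summit, and both of its flanking windows held the word as well. The closest protein-coding start was not that of PLAU for either, but that of CAMK2G, 13114 bp from the first, and that of VCL, 28715 bp from the second. Among the 2126 PHF13 peaks with an AP-1 word they ranked at the 33.6th and 18.3rd percentile by fold enrichment. Which gene such distal peaks act on cannot be read from peak lists.

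**Figure D2:**
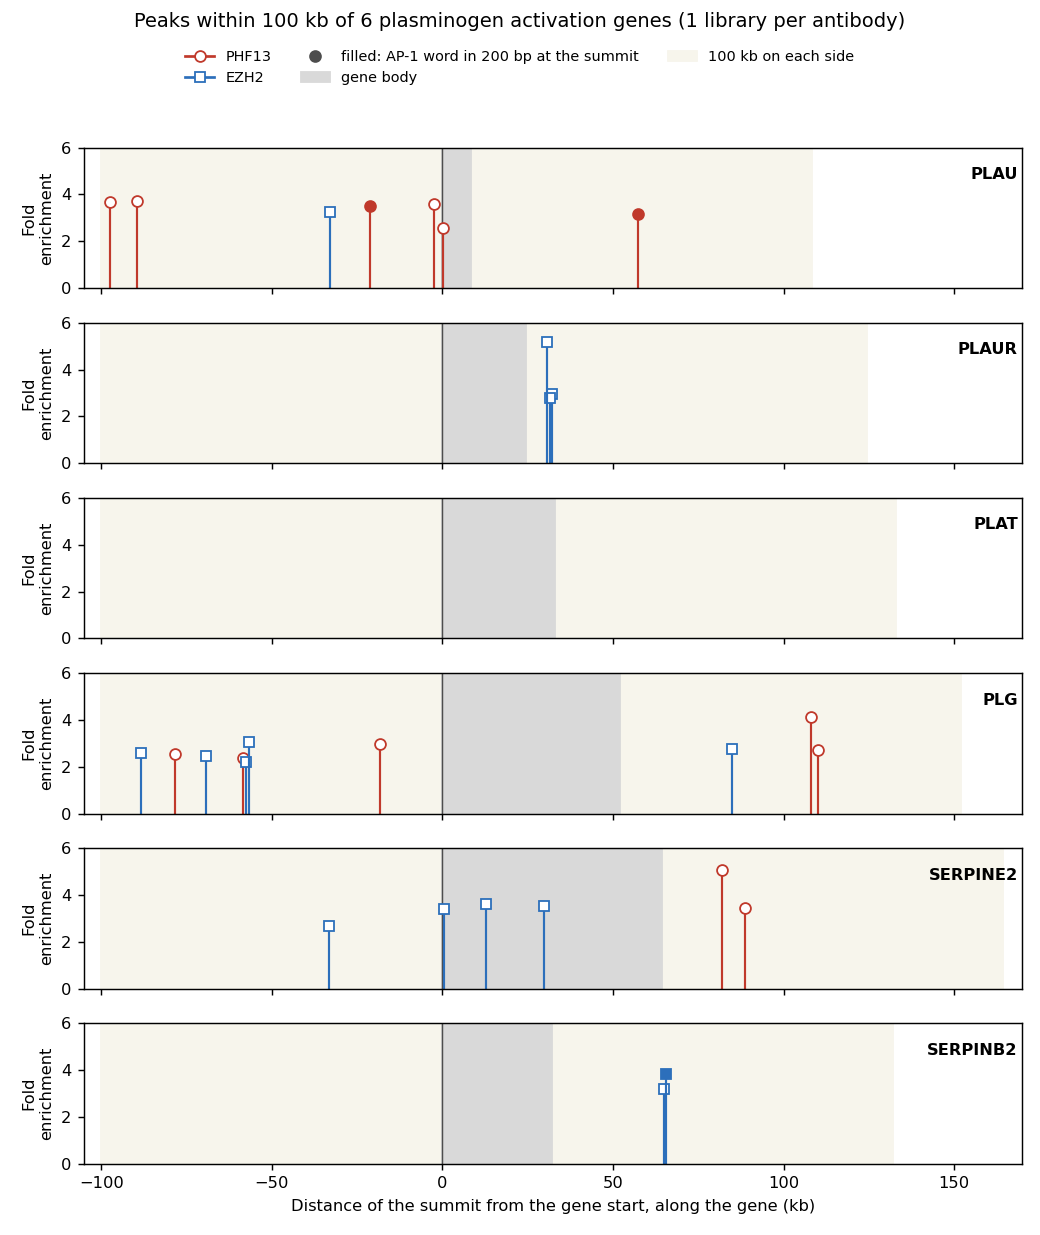
Fold enrichment (y axis) of each peak within 100 kb of a member against the distance of its summit from the gene start in kb (x axis), with PHF13 in red and EZH2 in blue and filled symbols for peaks with an AP-1 word. PLAU has 6 PHF13 peaks and 1 EZH2 peak, SERPINE2 has 3 of its 4 EZH2 peaks at the gene (grey), and no peak lies near PLAT.

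SERPINE2, an inhibitor of urokinase, tissue-type plasminogen activator and thrombin, was the member with EZH2 at its start. The gene (ENSG00000135919) lies on the minus strand of chromosome 2 at 224839762 to 224904035. The EZH2 peak at 224903225 to 224904586 was 1362 bp wide and covered the first start, with 551 bp before it and 811 bp inside the gene. The fold enrichment was 3.40 (2.66 to 4.28), with 70 fragments over a background of 19.9, and the −log10 q was 14.5. It was wider than or as wide as 95.3% of EZH2 peaks. EZH2 peaks of over 1 kb lay as close as 5 kb to a start at 7.04% of protein-coding genes.

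The sequence under this peak was CpG-rich, with 158 CpGs, a GC content of 73.2% and a CpG observed/expected ratio of 0.866. In the 500 bp at its summit the ratio was 0.791, and the 1659 EZH2 peaks over 1 kb wide had a median of 0.824 there. In the 500 bp at the outermost start, the CpG ratio of SERPINE2 was 0.956. The other members had ratios from 0.244 (PLG) to 0.424 (SERPINB2) there, whereas 60.7% of protein-coding genes reached 0.6. This depends on the start, since PLAU reached 0.833 at its last start and PLAUR 0.808 at an internal one. Over all genes, 24.5% of those with an outermost start at or above 0.6 and 22.3% of those below had EZH2 this close (5 kb) to a start.

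Inside SERPINE2 lay 2 further EZH2 peaks, both intronic. One, from 224891147 to 224891305, was enriched 3.63-fold (2.45 to 5.19) at a −log10 q of 6.13. The other, from 224873968 to 224874298, was enriched 3.54-fold (2.28 to 5.29) at a −log10 q of 4.55, and its median 24-mer occurred 2 times in the genome. They were 4213 and 4368 bp from internal starts, just inside the 5 kb limit, and they count by their place in the gene body as well. Another EZH2 peak lay 33099 bp upstream, with a fold enrichment of 2.69. None of the 4 held an AP-1 word at its summit.

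PHF13 was found only beyond the 3′ end of SERPINE2 within 100 kb. The closer peak, 17541 bp from the gene at 224822055 to 224822221, had the second highest fold enrichment of all peaks near a member, 5.08 (3.43 to 7.26), with 28 fragments over 4.71. It spanned a start of MRPL44, a mitochondrial ribosomal protein gene, and its CpG ratio was 0.906. The farther peak, 24301 bp away, had a fold enrichment of 3.43 (2.14 to 5.27) and held TGAATCA 29 bp before its summit but no strict AP-1 word.

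PLAUR encodes the urokinase receptor and had no peak at the gene. The gene (ENSG00000011422) lies on the minus strand of chromosome 19 at 44150247 to 44174699. Just outside the limits were 3 EZH2 peaks, 6260 to 7401 bp beyond its 3′ end and at least 16738 bp from any of its starts. The strongest, at 44143523 to 44143987, had the highest fold enrichment near any member, 5.17 (3.82 to 6.86), with 46 fragments over 8.09 and a −log10 q of 16.4. It lay in an exon of the neighbour CADM4, a cell adhesion molecule gene, 15 bp from a start of that gene, and its GC content was 84.6%. The other 2 had fold enrichments of 2.78 and 2.96 and lay in an intron of CADM4. The closest PHF13 peak was 380576 bp away from PLAUR, and 92.4% of protein-coding genes had a closer one.

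PLAT, the tissue-type activator, was the only one of the 6 members with no peak of either list within 100 kb. The gene (ENSG00000104368) lies on the minus strand of chromosome 8 at 42032236 to 42065227. The same held for 8.81% of protein-coding genes. The closest EZH2 peak was 277028 bp away, and the closest PHF13 peak 1027649 bp away. No EZH2 peak within 250 kb was found at 7.66% of genes, and no PHF13 peak within 1 Mb at 3.07%. Both limits were chosen after these distances had been seen. The gene did not lack the AP-1 word, which occurred 10 times in the gene and the 5 kb on each side.

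PLG, the zymogen of plasmin, is expressed mainly in liver. The gene (ENSG00000122194) lies on the plus strand of chromosome 6 at 161123226 to 161175129. It had no peak at the gene but 5 of each list within 100 kb. Of these, 2 PHF13 and 4 EZH2 peaks lay in introns of LPA, the neighbour that arose from PLG and consists largely of repeated kringle units, and their median 24-mers occurred 5 or 6 times in the genome. The background at these summits was 10.7 and 12.5 fragments in the PHF13 list and 19.9 to 25.3 in the EZH2 list, compared with list medians of 5.13 and 7.28. Reads from such repeats cannot be assigned to 1 copy with certainty. Another PHF13 peak, 18375 bp upstream of PLG, had a median 24-mer count of 63.

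Single-copy sequence near PLG held 2 PHF13 peaks and 1 EZH2 peak, all intergenic. The PHF13 peak 56066 bp behind the gene (161231195 to 161231665) was enriched 4.13-fold (2.77 to 5.95) at a −log10 q of 6.75. Its neighbour at 161233207 to 161233370 had 2.73 (1.63 to 4.33), and the EZH2 peak, 32699 bp from the gene, had 2.77 (1.6 to 4.52) with 14 fragments, and they were at the 5.60th and 3.37th percentile of their lists by −log10 q. The nearest approach of PHF13 to EZH2 near any member was 968 bp, between multi-copy peaks in LPA.

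SERPINB2, the plasminogen activator inhibitor of the clade B serpins, had EZH2 only in its neighbourhood. The gene (ENSG00000197632) lies on the plus strand of chromosome 18 at 61538926 to 61571122. A pair of EZH2 peaks lay behind it, 32610 and 33142 bp away, in intergenic sequence 12473 and 12060 bp from a start of HMSD. Their fold enrichments were 3.18 (2.0 to 4.84) and 3.85 (2.54 to 5.61). The second held the only AP-1 word at an EZH2 summit near a member, 79 bp before the summit. The closest PHF13 peak was 1061776 bp away, and 97.1% of protein-coding genes had a closer one.

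**Figure D3:**
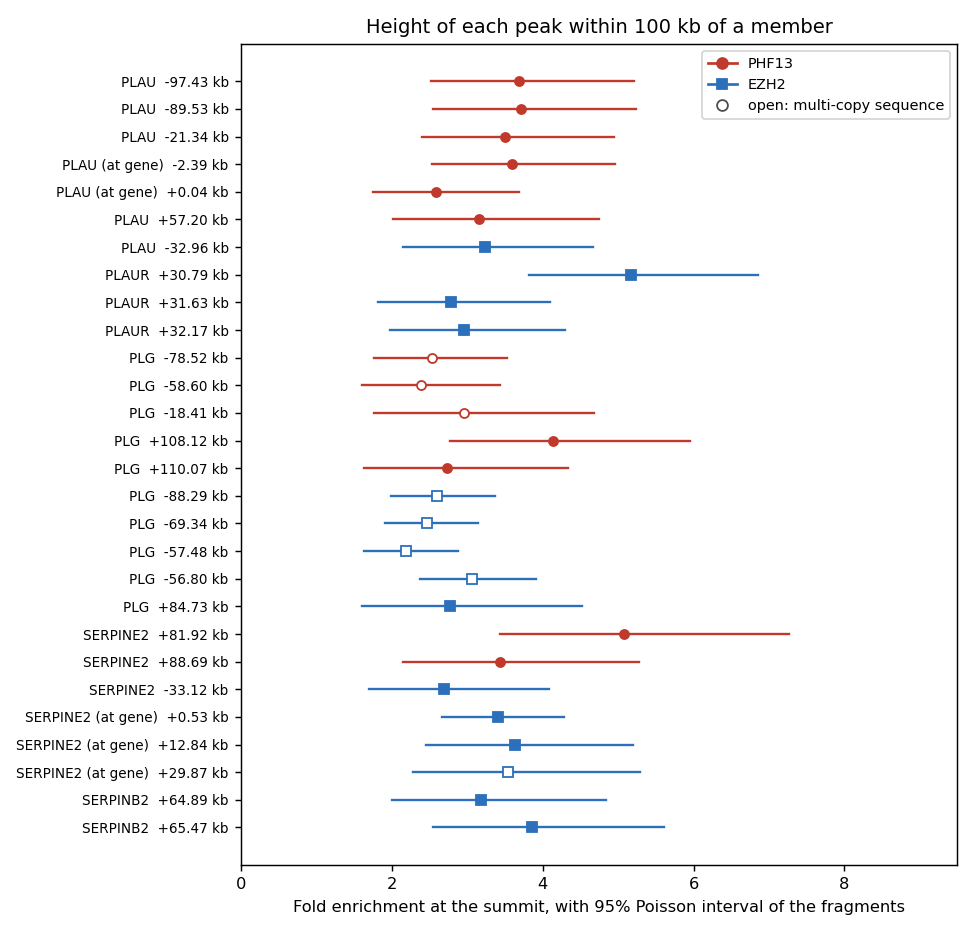
Fold enrichment at the summit (x axis) of the 28 peaks within 100 kb of a member, with the 95% Poisson interval of the fragments, by gene and distance of the summit from the gene start in kb. PHF13 is red, EZH2 is blue and open symbols are multi-copy sequence, and the values run from 2.19 to 5.17.

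Over the 6 genes, 13 PHF13 and 15 EZH2 peaks lay within 100 kb. PHF13 peaks were near 3 members (PLAU, PLG and SERPINE2), compared with 75.6% of protein-coding genes. EZH2 peaks were near 5 members, all except PLAT, compared with 77.1% of protein-coding genes. None of the 13 PHF13 peaks overlapped an EZH2 peak. Of all PHF13 peaks 11.7% did, and of those within 5 kb of a protein-coding TSS 6.67% did. With 13 peaks, this count says nothing of the system as a group. An AP-1 word was present at 2 of the 13 PHF13 summits (15.4%, 95% Wilson interval 4.33 to 42.2) and in 2 of their 26 flanking windows, and its interval includes the 11.2% of the whole list. For EZH2 it was present at 1 of 15 summits (6.67%, 1.19 to 29.8) and in 4 of their 30 flanking windows (13.3%). The interval for EZH2 includes the 2.31% of all EZH2 summits. The intervals cover counting error only.

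Most AP-1 words near the members had no PHF13 peak, as was so over the whole genome. The 6 genes with 100 kb on each side held 252 words, from 33 around PLG to 47 around PLAUR, and 2 of them (0.794%) lay in the 200 bp at a PHF13 summit. Over the whole genome, 0.544% of words did. Within 5 kb of the gene bodies there were 52 words, from 4 at PLAU to 13 at SERPINE2, and none was at a PHF13 summit. PLAU is also the shortest member, at 8320 bp.

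**Figure D4:**
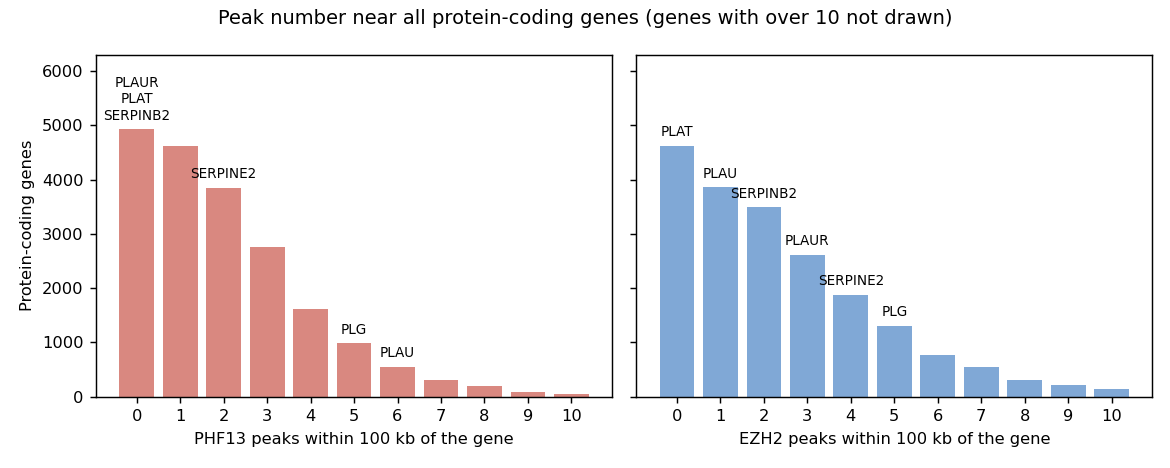
Number of protein-coding genes (y axis) with each number of PHF13 (left) or EZH2 (right) peaks within 100 kb (x axis), with the members named above the bar they belong to. PLAU, with 6 PHF13 peaks, is the rightmost member for PHF13 and has 1 EZH2 peak, PLAT is at 0 in both, and genes with over 10 peaks are not drawn.

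To place the members in the wider system, 31 other genes of plasminogen activation and plasmin control were examined. The list does not hold every gene of the system. PHF13 was at 11 of them (35.5%) and EZH2 at 10 (32.3%), beside 31.2% and 30.0% of all protein-coding genes. Both were at 2 genes (6.45%), SERPINF2, the plasma inhibitor of plasmin, and ST14, a membrane protease that activates pro-urokinase. At SERPINF2, the strongest PHF13 peak was enriched 4.44-fold and the EZH2 peak 4.87-fold. At ST14, a 1489 bp EZH2 peak, enriched 3.90-fold at a −log10 q of 23.9, covered a start, and the PHF13 peak, with a fold enrichment of 4.00, was 3571 bp from a start.

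PHF13 peaks with an AP-1 word were at 5 of the 31 genes (16.1%), beside 5.51% of protein-coding genes, and at none of the 6 members. Because the list was chosen with earlier results of these data known, its shares are a description only. The 5 genes were ANXA2 and ENO1, which bind plasminogen at the cell surface, CTSB, a cathepsin that can activate pro-urokinase, and the integrin genes ITGA3 and ITGB1. The strongest were at ITGA3, with a fold enrichment of 5.14 and 48 fragments at 4607 bp from a start, and at ANXA2, with 5.09 and 50 fragments at 1727 bp from a start. CTSB (3.44), ENO1 (2.66) and ITGB1 (3.52) had lower ones. At a −log10 q of at least 5, ANXA2 and ITGA3 were the 2 genes left (6.45%), against 3.15% of all genes. No EZH2 peak was at any of the 5, beside 30.0% of all protein-coding genes that had one. With 5 genes, nothing can be read from this count.

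For comparison with the PLAU peaks, the AP-1 words at these stronger peaks are printed with the word in capitals, read along each gene. The ITGA3 peak held 2 words in the stretch shown, in an exon of the noncoding RNA gene PICART1, and that of ANXA2 is cut to 29 bases since it overlaps annotated untranslated sequence.
ITGA3, chr17:48128525-48128625: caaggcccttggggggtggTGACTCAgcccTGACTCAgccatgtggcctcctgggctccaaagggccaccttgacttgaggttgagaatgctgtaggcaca
ANXA2, chr15:60685278-60685306, minus strand: agttggccctgTGACTCAgtcattaatca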

How the data were processed

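ChIP-seq was analysed as deposited peak lists for PHF13 and EZH2 in PANC-1 cells, 1 library each, with input as control. According to the methods and labels, the authors trimmed reads with Trim Galore (0.4.1), aligned them to hg19 with Bowtie2 (2.4.1), took out duplicate reads (Picard) and used MACS2 (2.2.7.1) for peaks. The deposited fold enrichment is a ratio at the summit, and the deposited p-value and q-value are given as −log10. The score column in the deposited files follows q and was not used. The lists reach a −log10 q of 1.30, looser than the limit stated for PHF13, and the EZH2 list is in narrow format although broad calling is described.

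Fragments and background were solved from fold and p for 100% of peaks (relative error under 0.0001). Total read numbers are unknown. Genes and TSSs came from GENCODE 44 on GRCh37. AP-1 words were sought in 200 bp at summits and at 1 kb to each side. Python 3.11.15, scipy 1.17.1 and pysam 0.24.0 were used, and functions were tested on simulated data. Peaks were placed by any base (minimum overlap 1 bp). No p-value was computed because there are no replicates. The members and gene lists were chosen with earlier results of these data known. Named peaks were all those at a member, and of the others the closest, the highest and those with an AP-1 word. Alternatives were other limits of q, distance, TSS, window, motif, copy number and overlap. The input itself was not analysed here. Sequences were read from the GRCh37 genome.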

Additional observations from a re-analysis of the deposited data

How the results depend on the processing

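The finding of PHF13 at 1 member (PLAU), EZH2 at 1 member (SERPINE2) and both at none kept these counts under each alternative tried, namely a −log10 q of at least 3 or 5, starts only, 1 kb, 1 start per gene, the summit position and single-copy peaks. The number of peaks within 100 kb fell at a −log10 q of at least 5, to 6 for PHF13 and 7 for EZH2, and the PHF13 number fell to 7 within 50 kb, since these limits leave fewer peaks. With single-copy peaks it was 10 for either list, and the losses were around PLG and SERPINE2. In 100 bp at the summit, 0% of the EZH2 peaks held an AP-1 word, because the single word lay 79 bp from its summit. The share of PHF13 peaks with the strict AP-1 word ran from 7.69% in 100 bp to 23.1% in 400 bp, within the counting interval of the share in 200 bp. For the wider word TGANTCA the share was 30.8% of the 13 peaks, beside 14.5% of all PHF13 summits. No interval was computed for it, and with 13 peaks no excess can be read from it. When edges within 1 kb counted as shared, 1 PHF13 peak was shared with EZH2, in the multi-copy sequence of LPA. No paired analysis was possible because each antibody has 1 library. Depth limits the result: the summits within 100 kb of a member rest on 14 to 70 fragments, and binding too weak to be called was not detectable. The 8-base AP-1-like words and the distances of 1 Mb and 250 kb were chosen after seeing the data.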
